A study of Mus musculus with 2 samples.

Results

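Open chromatin was compared at 5 genes of the Nodal pathway, Nodal, Tdgf1, Lefty1, Lefty2 and Smad7, in mouse embryonic stem cells (ESCs) with and without Uhrf1. The genes were chosen as members of this pathway that have enhancers in ESCs, and they are 5 of 22380 protein-coding genes in the GENCODE vM1 annotation of the mm9 genome. Each locus was the gene with 50 kb on either side. The loci held 61 of the 71914 peaks listed for the wild-type (WT) library and 56 of the 61640 peaks listed for the Uhrf1 knockout (KO) library. The assay was ATAC-seq, in which the Tn5 transposase places sequencing adapters into accessible DNA, and a peak is a position at which such insertions pile up. WT was undifferentiated E14 mESCs and KO was the Uhrf1 KO E14 mESC line. Both were grown with serum and leukemia inhibitory factor, on plates covered either with gelatin or with mouse embryonic fibroblasts, and 50000 cells went into the lysis. Uhrf1 recognises hemimethylated DNA and modified histone H3 and is needed to keep DNA methylation, and the comparison bears on how its loss changes open chromatin. 1 library was made per genotype, so the values compare those libraries, no test between genotypes was possible, and a difference has no replicate error. Whether the KO line came from 1 clone is not given in the sources used here.

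Nodal is a secreted ligand of the TGF-β family that binds activin receptors together with an EGF-CFC co-receptor, of which Tdgf1 (Cripto) is the main one in ESCs. The receptors phosphorylate Smad2 and Smad3, which join Smad4 and enter the nucleus, where FoxH1 is one of their DNA-binding partners. Lefty1 and Lefty2 are secreted antagonists that bind Nodal or its co-receptor, and both genes are themselves switched on by Nodal signalling. Smad7 is an inhibitory Smad that blocks the receptors and is likewise induced by TGF-β family signals. In ESCs the pathway is active, and Lefty1 is a well-known target of Oct4 and Sox2. In the embryo it patterns the epiblast, mesendoderm and left-right axis.

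The deposited lists gave each peak a position, a name and a score, but no read count. The score was 1 for every peak, and all peaks were 101 bp wide except 1 KO peak, so neither tells how open a site was. A peak was called shared when a peak of the other library lay within 100 bp, and otherwise WT-only or KO-only. A position such as -1152 is that of the peak's middle, in bp from the annotated start of the gene, and is negative upstream. All 6 ESC marker genes, Pou5f1, Sox2, Nanog, Esrrb, Zfp42 and Klf4, had a peak within 2 kb of a transcription start site (TSS) in both lists. Of 6 fibroblast markers, Col1a1, Col1a2 and Thy1 had such a peak in both lists, and Col3a1, Postn and Twist2 had one in neither. The part of feeder cells in the peaks at the 5 loci was not tested. The TSS of Uhrf1 had 2 WT and 3 KO peaks within 2 kb, all shared, so this site says nothing about the genotype labels.

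Under the 100 bp rule most peaks at the 5 loci were shared between the lists, though with a minimum overlap of 50% of each peak 55.7% of WT and 51.8% of KO peaks had no partner. The lists differed most clearly at the Lefty1 gene. The Lefty1 gene with 2 kb on either side held 4 WT peaks and no KO peak. Lefty2, within the same limits, held 1 WT peak and no KO peak. At Tdgf1, 4 of the 8 WT peaks close to the TSS had no KO counterpart, while the peaks at the TSS itself were shared. At Nodal the promoter peaks were shared and a pair of peaks in the second coding exon was listed for WT alone. At Smad7 the peaks just upstream of the gene were shared, and the peaks in exon 1 and intron 3 were held by the KO list alone.

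Over all loci together the lists differed little in number. The 61 WT peaks have a 95% exact Poisson interval of 46.7 to 78.4, and the 56 KO peaks one of 42.3 to 72.7. Such intervals allow for counting error alone, and peaks side by side in 1 open region are not independent. The ratio of KO to WT peaks was 0.918 (95% exact interval 0.627 to 1.34), against 0.857 (0.848 to 0.866) over all peaks. WT-only peaks numbered 22 of 61 (36.1%, 95% exact binomial interval 24.2% to 49.4%), against 32.1% of all WT peaks. KO-only peaks numbered 16 of 56 (28.6%, interval 17.3% to 42.2%), against 24.6% of all KO peaks. Both shares at the loci thus have intervals that include the share over the whole list. Of the shared peaks, the middles lay a median of 23 bp apart in the WT list and 24.5 bp in the KO list, and 2 peaks were listed at identical positions in both. A bulk library cannot tell fewer cells with an open site from less opening in each cell.

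The loci are dense in peaks. Among the 22380 protein-coding genes, the median gene with 50 kb on either side held 7 WT and 5 KO peaks. Nodal held more than 72.7% of genes in WT and more than 78.6% in KO. Lefty1 held more than 92.9% of genes in WT and 82.9% in KO, and Lefty2 more than 92.9% and 93.4%. Tdgf1 held more than 81.0% and 91.3%, and Smad7 more than 91.3% and 96.0%. Lefty1 was therefore the only member whose place among all genes was lower in KO than in WT. Actg1 was the one gene outside the locus with the same counts of shared and unshared peaks in both lists as Lefty1, Hist3h2a the one for Lefty2, and Atxn7l2 and Sypl2 those for Nodal. No gene matched the counts of Tdgf1 or Smad7. The likeness is over 2 libraries and concerns counts alone.

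**Figure D1:**
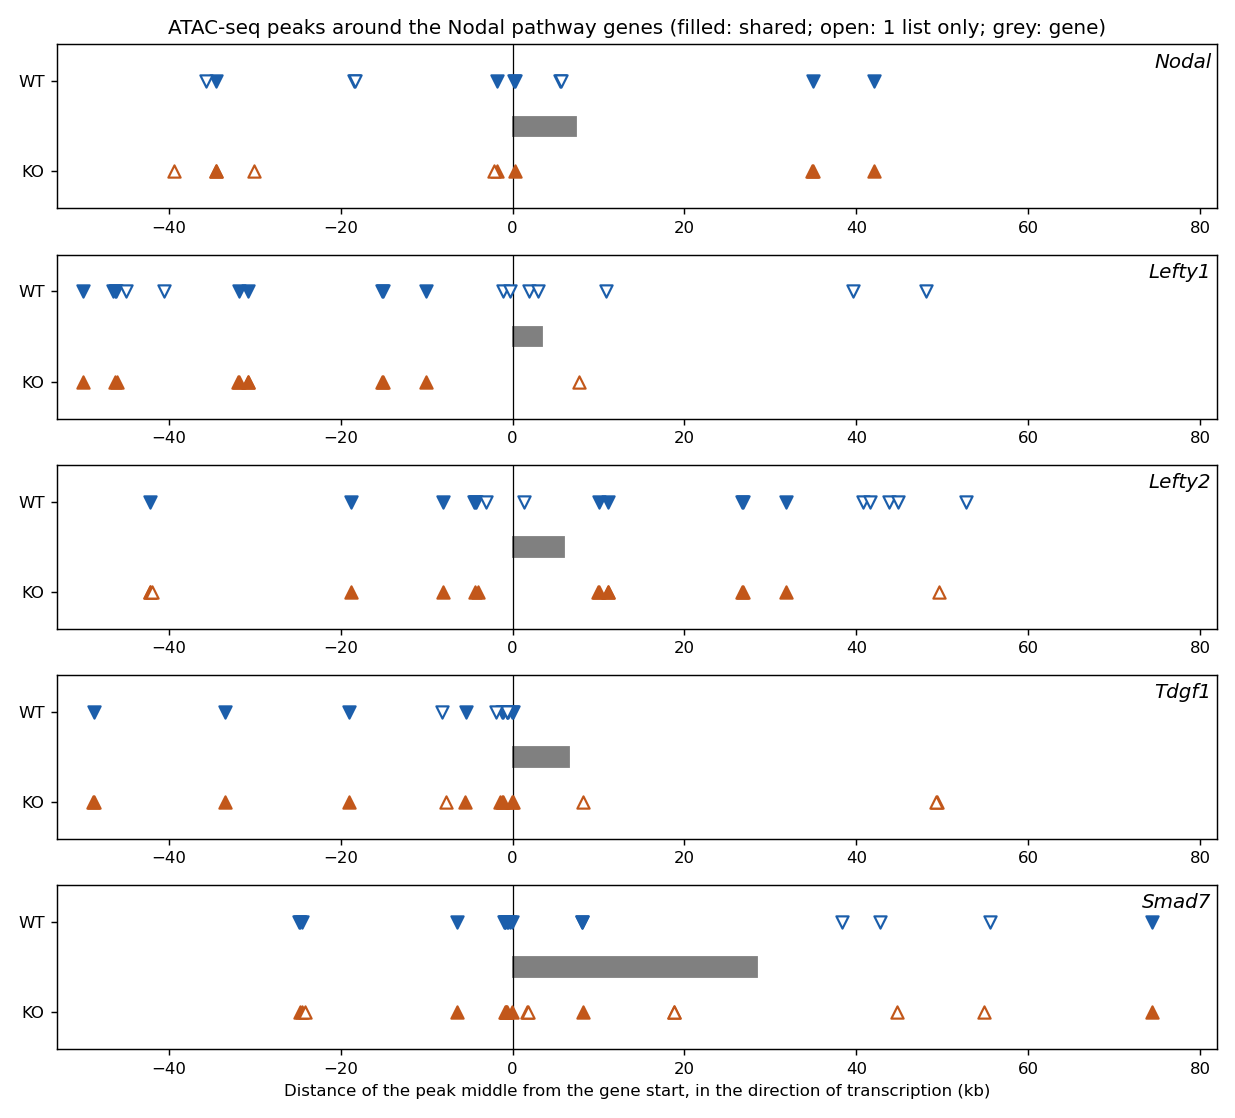
Position of every peak at the 5 loci, in kb from the annotated gene start in the direction of transcription (x axis), with WT peaks above and KO peaks below the gene (grey). Filled triangles are shared peaks and open triangles are peaks of 1 list only. The 4 open WT triangles over Lefty1 have no KO triangle opposite, whereas the KO list has open triangles inside Smad7.

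The ligand gene Nodal lies on chr10:60880720-60888086 on the plus strand (ENSMUSG00000037171.6) and has 1 annotated transcript. Its locus had 11 peaks in WT (Poisson interval 5.49 to 19.7) and 10 in KO (4.80 to 18.4), of which 5 were WT-only and 3 KO-only. The upstream peak closest to the start was listed at -1796 in WT and at -1791 in KO, 5 bp apart. Its sequence is shown because, of the upstream sites that both lists held, it is the closest to the Nodal start. None of the 7 motifs searched, which are spelled out with the motif counts, was found in it.
Nodal, shared WT peak, chr10:60878874-60878974, plus strand: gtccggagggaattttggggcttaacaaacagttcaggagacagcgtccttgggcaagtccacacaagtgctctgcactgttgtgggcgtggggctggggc
In the 5′ UTR of exon 1, WT peaks at +206 and +261 faced 1 KO peak at +226, so the promoter was listed as open in both libraries. Nodal thus had 3 WT and 2 KO peaks within 2 kb of its TSS, and none of them was unshared.

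The WT-only peaks inside Nodal lay at +5528 and +5600, and both had their middle in coding exon 2. They overlap, so they are separate entries of the list on the same stretch of DNA. Further upstream, WT-only peaks at -18454 and -18396 formed another overlapping pair in intergenic DNA, and a single WT-only peak at -35667 lay in intron 1 of the neighbouring gene X99384. The KO-only peaks lay at -2136, just upstream of the shared KO peak at -1791, at -30121 and at -39437. The last of these cannot be placed with certainty, because its central 31 bp have 9671 copies in the genome. The shared distal peaks at 34959 (WT) and 34962 (KO), and at 42035 and 42036, differed by 3 and 1 bp between the lists. The first of these had the lowest name number of the Nodal locus, a number explained with the name numbers, in both lists. Known enhancers of Nodal include an asymmetric enhancer in intron 1 and elements upstream that act in the node and the epiblast. Peaks were not assigned to them here, since no file places them. No peak of either list had its middle in intron 1 of Nodal.

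The co-receptor gene Tdgf1 lies on chr9:110842114-110848662 on the minus strand (ENSMUSG00000032494.8). Its locus held 13 WT peaks (6.92 to 22.2) and 14 KO peaks (7.65 to 23.5), of which 5 were WT-only and 4 KO-only. Within 2 kb of the TSS there were 8 WT and 5 KO peaks. At the TSS itself, WT peaks at 38 and -37 faced KO peaks at 49 and -21, so the promoter was listed in both. A second shared group lay at -1124 and -1261 in WT and at -1172, -1244 and -1428 in KO. Between and beyond these groups, the WT list alone held peaks at -509, -613, -667 and -1975. The peaks at -613 and -667 overlap. The WT-only peak closest to the start is printed in the direction of transcription, and its capitals mark CCACACCC, the motif of Klf factors. The shared KO peak upstream of it held none of the motifs.
Tdgf1, WT-only peak, chr9:110849121-110849221, minus strand: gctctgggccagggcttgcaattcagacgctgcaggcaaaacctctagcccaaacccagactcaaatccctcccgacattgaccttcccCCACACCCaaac
Tdgf1, shared KO peak, chr9:110849784-110849884, minus strand: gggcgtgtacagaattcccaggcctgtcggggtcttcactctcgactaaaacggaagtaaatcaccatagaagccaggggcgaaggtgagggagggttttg
The KO-only peaks of the locus were all farther from the start. The peak at 8188 from the gene start lay past the end of the gene, within 2 kb of that end. Another lay at -7752 in intron 1 of Lrrc2, and a pair lay at 49314 and 49433 in intron 21 of Als2cl. The first of that pair had the lowest name number among all KO-only peaks of the 5 loci, at 27.3% of its chromosome's list. The fifth WT-only peak of the locus, at -8264, lay in the same Lrrc2 intron as the KO-only peak at -7752. Shared peaks of the WT list stood at -19065 and -33491, in introns 4 and 7 of Lrrc2. The shared peak at -48714 had identical coordinates in the lists.

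The antagonist genes lie next to each other on chromosome 1, both on the plus strand, with Lefty2 (ENSMUSG00000066652.5) at chr1:182823239-182829234 and Lefty1 (ENSMUSG00000038793.8) at chr1:182865153-182868531. Their starts are 41914 bp apart, so the loci overlap, and 16 of the 20 WT peaks and 11 of the 15 KO peaks of the pair belong to both. The Lefty1 locus had 18 peaks in WT (interval 10.7 to 28.4) and 11 in KO (5.49 to 19.7), of which 9 were WT-only and 1 KO-only. The Lefty2 locus held 18 WT peaks (10.7 to 28.4) and 15 KO peaks (8.40 to 24.7), of which 7 were WT-only and 2 KO-only. Over both genes together, 9 of 20 WT peaks (45.0%, interval 23.1% to 68.5%) and 2 of 15 KO peaks (13.3%, 1.66% to 40.5%) had no partner. The intervals of the KO and WT counts overlap for each gene.

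The WT peaks of Lefty1 lay at -1152 and -353 upstream, at 1939 in intron 2 and at 2936 in coding exon 4, and all were WT-only. No KO peak lay between chr1:182855141 and chr1:182872786, a stretch of 17644 bp around the gene that held 4 WT peaks, the same 4. Across the genome, 6132 protein-coding genes had at least 4 WT peaks in the gene with 2 kb on either side, and 78 of them (1.27%) had no KO peak there. Of the 1918 genes with exactly 4, 41 (2.14%) had none. For Lefty2, whose single WT peak lay in intron 2 at 1383, the matching background is wider, since of 15618 genes with at least 1 WT peak in these limits 1406 (9.00%) had no KO peak. The stretch without a KO peak around the Lefty2 start was 13963 bp long and held 2 WT peaks, that in intron 2 and one at -3117. How often stretches as long as those at Lefty1 and Lefty2 hold no KO peak elsewhere in the genome was not counted. The peaks of Lefty1 were chosen for description with these lists in view, so the percentages describe how often such a gene occurs and test nothing.

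The sequences at Lefty1 are shown because this is where the lists differed. The peak at -1152 holds CATAACAA in capitals, which matches, on the other strand, the core of the joint Sox2 and Oct4 element as searched, TTGTNATG. Around the peak at -353 the central 200 bp are printed, since the FoxH1 motif AATNNACA, present on the other strand as TGTTGATT in capitals, lies outside the 101 bp of the peak. The distal shared peak at -10085 in WT, paired with a KO peak at -10062, is printed for contrast, with a FoxH1 match and a Sox2-Oct4 core match in capitals in its central 200 bp.
Lefty1, WT-only peak at -1152, chr1:182863951-182864051, plus strand: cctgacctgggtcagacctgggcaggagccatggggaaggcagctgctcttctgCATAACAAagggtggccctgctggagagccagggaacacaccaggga
Lefty1, centre of the WT-only peak at -353, chr1:182864700-182864899, plus strand: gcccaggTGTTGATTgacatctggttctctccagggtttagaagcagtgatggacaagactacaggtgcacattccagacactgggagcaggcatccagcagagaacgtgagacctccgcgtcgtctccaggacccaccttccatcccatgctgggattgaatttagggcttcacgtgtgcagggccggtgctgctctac
Lefty1, centre of the shared WT peak at -10085, chr1:182854968-182855167, plus strand: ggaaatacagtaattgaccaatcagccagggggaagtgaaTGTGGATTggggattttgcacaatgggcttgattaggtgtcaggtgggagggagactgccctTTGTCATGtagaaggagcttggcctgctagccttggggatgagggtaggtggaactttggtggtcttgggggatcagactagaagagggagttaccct
The motifs occur on both sides of the comparison, so the presence of these letters did not separate the WT-only from the shared sites of Lefty1. A match is a stretch of letters and does not show that a factor was bound.

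The intron 2 peaks of Lefty1 and Lefty2, both WT-only, lie in related sequence. Lefty1 and Lefty2 are paralogs, and when the peaks were aligned without gaps, 44 bases faced each other, of which 40 (90.9%) were identical. Each of these peaks also lies close to the start of a second annotated transcript of its gene, 90 bp away at Lefty1 and 33 bp away at Lefty2. The aligned bases are in capitals.
Lefty1, WT-only peak in intron 2, chr1:182867042-182867142, plus strand: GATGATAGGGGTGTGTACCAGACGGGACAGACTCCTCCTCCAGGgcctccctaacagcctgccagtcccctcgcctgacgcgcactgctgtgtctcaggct
Lefty2, WT-only peak in intron 2, chr1:182824572-182824672, plus strand: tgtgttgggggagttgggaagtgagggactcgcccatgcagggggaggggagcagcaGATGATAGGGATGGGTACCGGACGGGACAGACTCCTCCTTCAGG
Of the 71 windows of 31 bp within a peak, 70 of the Lefty1 peak were unique in the genome but only 44 of the Lefty2 peak, and 27 of those of the Lefty2 peak occurred in the Lefty1 gene. Mapping kept a single alignment per read, which for the repeated part of the Lefty2 peak can be at either copy. The Lefty1 peak in coding exon 4 likewise had 48 unique windows of 71, while the upstream peaks at -1152 and -353 were unique throughout.

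The distal sites between and upstream of the Lefty genes were mostly shared. The peak at -4343 of Lefty2 had identical coordinates in WT and KO. Its name number fell within the first 14.6% of the WT list of its chromosome and the first 23.8% of the KO list, which places it among the low numbers in both. It had the lowest name number of the distal shared WT peaks whose closest TSS was that of Lefty2, and is printed for that reason. Its central 200 bp held a Sox2-Oct4 core match, here CATCACAA in capitals.
Lefty2, centre of the shared WT peak at -4343, chr1:182818796-182818995, plus strand: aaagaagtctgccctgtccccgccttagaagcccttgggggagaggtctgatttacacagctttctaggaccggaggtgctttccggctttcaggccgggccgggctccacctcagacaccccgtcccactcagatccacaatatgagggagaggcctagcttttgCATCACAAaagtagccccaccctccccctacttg
Other shared sites lay at -8072 and -18850 of Lefty2, with KO partners at -8079 and -18856, and in the stretch between the genes at -15169 and -15119 of Lefty1, with KO partners at -15167 and -15112. A shared group at about 10 kb and 11 kb downstream of the Lefty2 start had GC contents of 58.5% and 65.5% in WT. The KO-only peaks of the pair were at -42000 of Lefty2, beside a shared group, and at 7683 of Lefty1, in intron 1 of Tmem63a. Beyond the gene, 3 WT-only peaks lay at 10822, 39580 and 48127 of Lefty1, and the last stood at 99.3% of its chromosome's list.

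**Figure D2:**
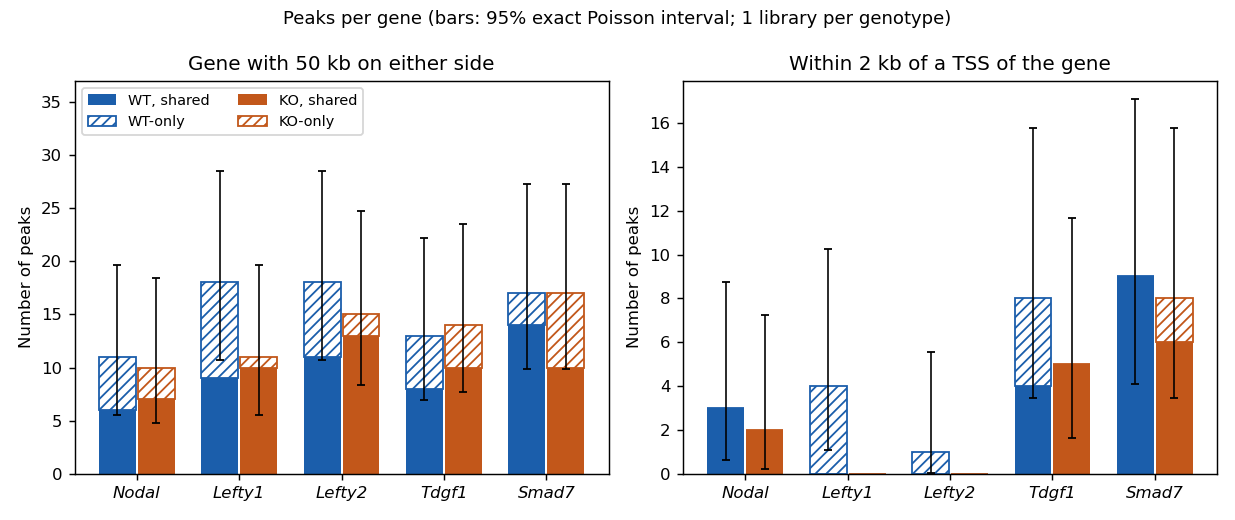
Number of peaks per gene (y axis) in WT (blue) and KO (orange), for the gene with 50 kb on either side (left) and within 2 kb of a TSS of the gene (right). Solid bars are shared peaks, hatched bars peaks of 1 list only, and error bars 95% exact Poisson intervals, left out where no peak was listed. In the right panel the bars of Lefty1 (4 in WT) are wholly hatched with none in KO, and those of Smad7 (9 in WT, 8 in KO) are mostly solid.

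Smad7, the inhibitory Smad, lies on chromosome 18 from 75527183 to 75555589 on the plus strand (ENSMUSG00000025880.5) and has 5 transcripts with 5 starts. Its locus held 17 WT and 17 KO peaks (both 9.90 to 27.2), of which 3 were WT-only and 7 KO-only. Upstream of the gene, a dense group of 7 WT peaks from -974 to -43 faced 5 KO peaks from -924 to -114. Most of this group lies in intron 1 of RP24-263P17.1, a non-coding gene upstream of Smad7. The group is rich in CpG, with up to 28 CpG dinucleotides in the central 200 bp of a peak in both lists. Intron 2 held shared peaks at 8066 and 8139 in WT and at 8143 in KO.

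Inside the gene the KO list alone held 4 peaks, at 1698 and 1852 in coding exon 1 and at 18752 and 18812 in intron 3. With 2 kb on either side the gene held 9 WT and 10 KO peaks, so Smad7 was the only member with no WT-only peak in these limits and the one with the most KO-only peaks there. Each of the other members held at most 1 such KO-only peak. The exon 1 peaks had GC contents of 70.5% and 72.5%, and the intron 3 peaks, which overlap, 54.0% and 52.5%. A further CpG-rich group, from -24860 in WT to -24146 in KO, held 3 WT peaks, all shared, and 3 KO peaks, of which that at -24146 was KO-only. Downstream, the lists held different peaks, WT-only at 38327, 42820 and 55545 and KO-only at 44722 and 54866. The KO-only peak at 54866 lies in a repeated sequence, with 1129996 genomic copies of its central 31 bp. The shared pair at 74438 and 74482 lies in intron 10 of Ctif, and the shared pair at -6437 and -6410 held the only FoxH1 match of the locus.

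Fewer KO than WT peaks were listed near the starts of the members, and more in the rest of their loci. Within 2 kb of a TSS of a member there were 25 WT and 15 KO peaks, a ratio of 0.60 (95% exact interval 0.294 to 1.18). In the rest of the loci there were 36 WT and 41 KO peaks, a ratio of 1.14 (0.710 to 1.83). The intervals overlap, and the difference between the ratios was not tested. The WT-only share was alike in both places, 9 of 25 (36.0%) near the starts and 13 of 36 (36.1%) in the rest. The KO-only share was 2 of 15 (13.3%, interval 1.66% to 40.5%) near the starts and 14 of 41 (34.1%, 20.1% to 50.6%) in the rest. Those ratios use the TSSs of members only. With the TSSs of any gene, the ratio at the loci was 0.848 (0.494 to 1.45) within 2 kb and 1 (0.571 to 1.75) farther away. Over all peaks the same order was seen, with a ratio of 0.766 (0.754 to 0.777) within 2 kb of any TSS and 0.963 (0.948 to 0.978) farther away. Both intervals at the loci include these values. Of the peaks within 2 kb of any TSS at the loci, 11 of 33 in WT (33.3%, 17.96% to 51.8%) and 4 of 28 in KO (14.3%, 4.03% to 32.7%) had no partner. Over all such peaks the shares were 26.1% in WT and 9.74% in KO. The shares farther from a TSS were 11 of 28 (39.3%) in WT and 12 of 28 (42.9%) in KO at the loci, against 39.0% and 38.3% over all peaks.

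The peaks without a partner were mostly those with high name numbers. The name of a peak carries a number, given separately on each chromosome, whose meaning is not given in the sources used here. The numbers run in blocks, within which the positions rise along the chromosome and then start again. The blocks were noticed in the lists and are counted here from the end, block 1 holding the highest numbers. Over the WT peaks of the 19 autosomes the WT-only share was 65.7% in block 1, 18.9% in block 14 and 4.94% in the lower numbers before it. Over the KO peaks of the autosomes the KO-only share was 53.8% in block 1, 8.52% in block 14 and 3.03% before it. The low-numbered autosomal peaks of either list were thus almost all shared.

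At the 5 loci, all 22 WT-only peaks and 15 of the 16 KO-only peaks lay in the last 14 blocks. Adding up the shares of the blocks that the 61 WT peaks belong to gives 22.6, beside the 22 observed, and for the 56 KO peaks it gives 15.4, beside 16. By gene, the Lefty1 locus had 9 WT-only peaks beside a sum of 6.64, Lefty2 7 beside 5.46, Nodal 5 beside 4.24, Tdgf1 5 beside 6.34 and Smad7 3 beside 5.28. For KO-only peaks Smad7 had 7 beside 4.91, Tdgf1 4 beside 4.13, Nodal 3 beside 3.13, Lefty2 2 beside 3.23 and Lefty1 1 beside 2.59. Lefty1 and Smad7 thus stood on opposite sides of their sums in each list, by a few peaks, and these differences were not tested. The 3 WT-only peaks of Lefty1 at -1152, -353 and 1939 followed one another in block 8, in which 36.6% of autosomal WT peaks were WT-only. That in exon 4 lay in block 6 (44.0%).

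**Figure D3:**
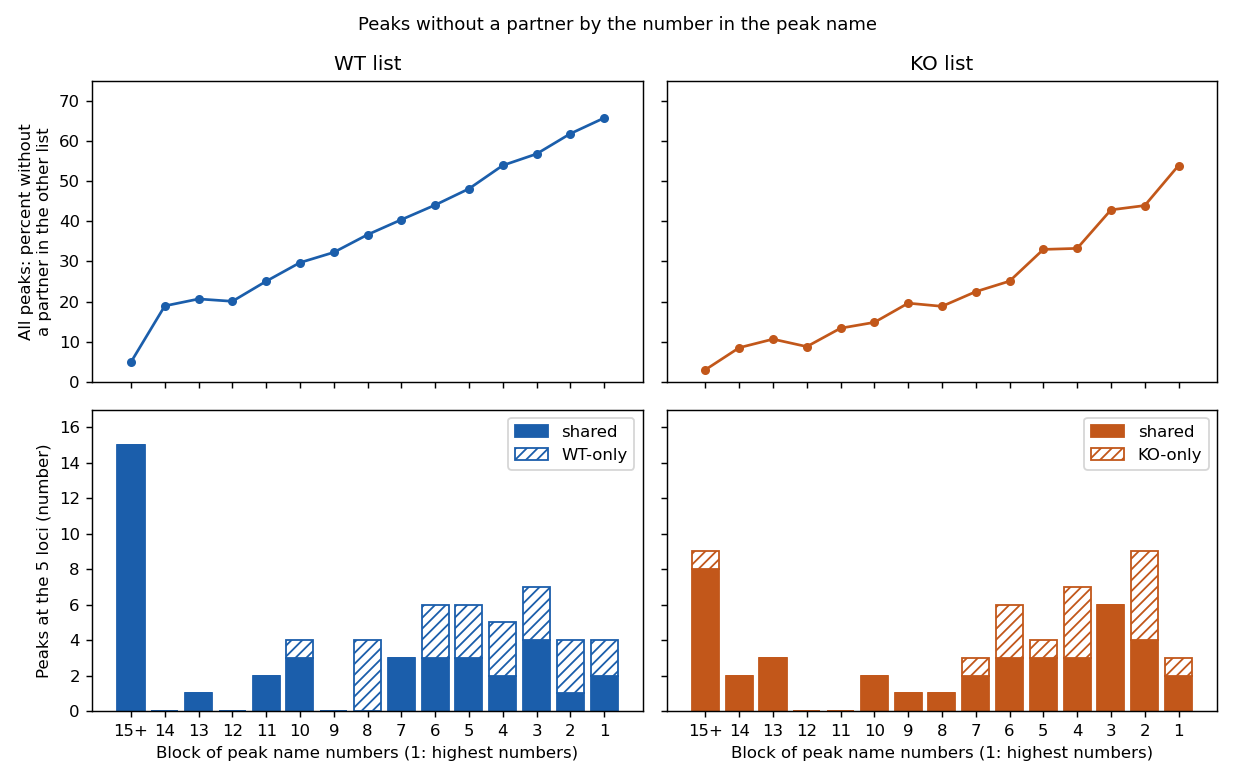
Top, percent of all autosomal peaks of a list without a partner in the other list (y axis) by block of name numbers (x axis, highest numbers at the right, 15+ being all lower numbers). Bottom, number of peaks at the 5 loci in each block, shared (solid) or not (hatched), with WT at the left and KO at the right. The line climbs in WT from 4.94% to 65.7% and in KO from 3.03%, its lowest value, to 53.8%, and no WT-only peak of the loci is among the lower numbers.

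Base composition differed little between the lists at the loci. The median GC content of the central 200 bp was 58.0% over the 61 WT peaks (SD 7.73) and 57.8% over the 56 KO peaks (SD 8.70). Over the whole lists the medians were 59.5% in WT and 56.5% in KO. The KO-only peaks at the loci had a median of 61.5% (lowest 44.0%, highest 72.5%, n = 16), against 49.5% over all 15174 KO-only peaks. The WT-only peaks had a median of 58.2% (n = 22), against 58.0% over all WT-only peaks. The 7 KO-only peaks of Smad7 had a median of 64.5% (lowest 44.0%, highest 72.5%), and the 9 at the other members a median of 61.0% (lowest 47.0%, highest 69.0%). The SDs are between peaks of 1 library.

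Motifs were counted on both strands in the central 200 bp of the peaks, for the octamer ATGCAAAT of Oct4, TTGTNATG of Sox2 and Oct4 together, AATNNACA of FoxH1, the Smad palindrome GTCTAGAC, CTTTGAT of Tcf/Lef, TCAAGGTCA of Esrrb and CCACACCC of Klf. The Sox2-Oct4 core was found in 4 of 61 WT peaks (6.56%, interval 1.82% to 15.9%), against 1.93% of all WT peaks. It was found in 2 of the 56 KO peaks (3.57%, 0.435% to 12.3%), against 2.39% of all KO peaks. All 6 of these peaks were at the Lefty genes, at the shared sites around -4343 of Lefty2 and -10085 of Lefty1 and in the WT-only peak at -1152 of Lefty1. Both intervals include the share over all peaks. Since overlapping centres can hold the same letters, they stand for fewer sites than peaks.

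The FoxH1 motif was found in 6 WT peaks (9.84%, 3.70% to 20.2%) and 5 KO peaks (8.93%, 2.96% to 19.6%), against 5.03% and 6.52% of all peaks. The matches lay at the Lefty genes, at the Tdgf1 TSS and around -6437 of Smad7, and only that at -353 of Lefty1 was in an unshared peak. The Smad palindrome occurred in 1 WT peak, at -311 of Smad7, against 0.164% of all WT peaks. The octamer occurred in 1 WT peak, the WT-only peak in exon 4 of Lefty1, which also held a Klf match. The Klf motif was found in 2 WT and 1 KO peaks at the loci, in each case in an unshared peak of Lefty1 or Tdgf1. The Tcf/Lef and Esrrb letters were found in no peak of the loci, against 1.73% and 0.295% of all WT peaks. Any of the 7 motifs occurred in 11 WT peaks (18.03%, 9.36% to 30.0%) and 7 KO peaks (12.5%, 5.18% to 24.1%), against 13.0% and 15.5% of all peaks, which the intervals include.

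The other genes of the pathway, a list of 25 that covers ligands, receptors, effectors and inhibitors, were mostly open at their starts in both lists. In WT 23 of 25 had a peak within 2 kb of a TSS, in KO likewise 23, and 22 in both. Over all protein-coding genes 63.6% had such a WT peak, 58.7% such a KO peak and 57.0% both. Like Lefty1 and Lefty2, the secreted antagonist Dand5 had such peaks in WT (2, both WT-only) and none in KO, a pattern that 6.64% of all protein-coding genes had. The antagonist Cer1, a target of the pathway, had no such peak in either list. Cfc1, the other EGF-CFC co-receptor, had none in WT and 3 in KO, a pattern of 1.73% of genes, while Tdgf1 had 8 and 5.

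With 50 kb on either side, 18 of the 25 genes held more WT than KO peaks, 6 held more KO peaks and 1, the receptor gene Acvr1c, held as many. Of the 21207 protein-coding genes with a peak in either list in these limits, 59.9% held more WT than KO peaks, the WT list being the longer one. Dand5 differed most, with 18 peaks in WT (interval 10.7 to 28.4) and 5 in KO (1.62 to 11.7), and 13 of the WT peaks were WT-only. Dand5 and the ligand gene Gdf1 lie on chromosome 8, which held 3072 KO peaks and 4792 WT peaks in all. That is a ratio of 0.641, against 0.857 over all peaks. The part of that chromosome in the values of Dand5 was not tested. Summed over the list, with peaks counted once per gene, there were 260 WT and 194 KO peaks, a ratio of 0.746, and without the genes on chromosome 8 the ratio was 0.790. Tgif1, a corepressor, held 18 WT and 21 KO peaks. The signal transducers Smad2 and Smad3 held 6 and 7 WT peaks and 7 and 5 KO peaks, and Foxh1 held 20 and 14. Within 2 kb of a TSS, 13 of the 25 genes had fewer KO than WT peaks, 5 had more and 7 had as many, among them Cer1 with none in either list. All 5 members, Nodal, Lefty1, Lefty2, Tdgf1 and Smad7, had fewer, by 1 peak at Nodal, Lefty2 and Smad7. At Nodal and Smad7 every WT peak in these limits was shared, so the lower KO number there is not a site listed for WT alone. Of the 14632 protein-coding genes with such a peak in either list, 50.8% had fewer in KO than in WT. With distances taken from the 5′ end of the gene alone, Smad7 had 7 peaks in each list.

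**Figure D4:**
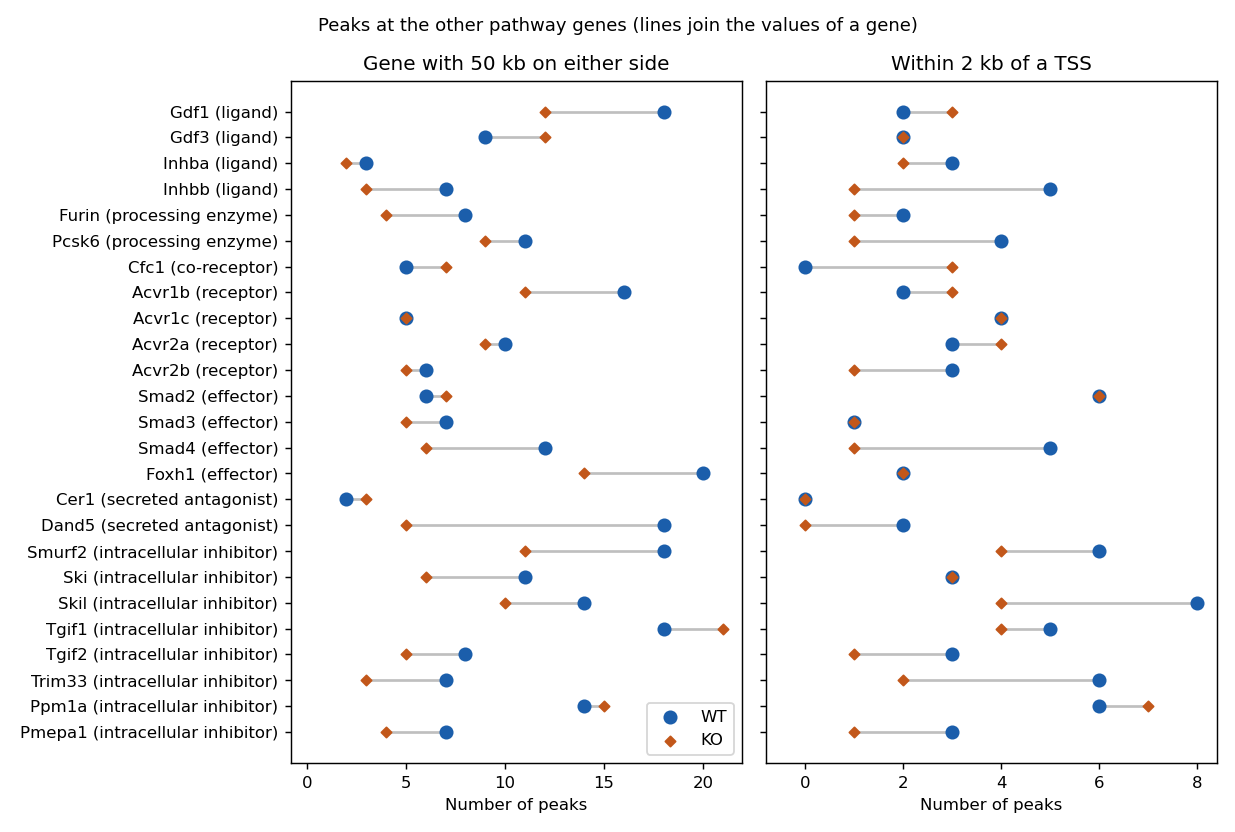
Number of WT (blue circles) and KO (orange diamonds) peaks at the other 25 pathway genes (y axis), with 50 kb on either side of the gene (left) and within 2 kb of a TSS (right). Dand5 has the longest line at the left (18 in WT, 5 in KO), and Cfc1 has 0 in WT and 3 in KO at the right.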

How the data were processed

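The processed data were the lists of ATAC-seq peaks of 1 WT and 1 Uhrf1 KO library. The authors mapped reads to mm9 with Bowtie2 2.1.0, reporting 1 alignment per read, and used fragments shorter than 150 bp. The submitters' processing notes also name HOMER 4.9.1, without its role. The peak caller and threshold are not given in the sources used here. The deposited score was 1 for every peak, so a planned threshold on it could not be applied, and the number of fragments behind a peak, and hence its precision, is unknown.

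From the positions, numbers of peaks with 95% exact Poisson intervals and shares with 95% exact (Clopper-Pearson) binomial intervals were computed with scipy 1.17.1, pandas 2.3.3 and numpy 2.4.6 in Python 3.11.15. The annotation was GENCODE vM1, on the same build, and sequence came from the NCBIM37 genome (pysam 0.24.0, samtools 1.23.1). Copies of 31 bp windows were counted with numba 0.67.0 and figures drawn with matplotlib 3.10.9. The overlap and block routines were tested on simulated regions. Alternatives were other overlap rules, window sizes and TSS distances, merged peaks, the lower name numbers and motifs in the whole peak. Described peaks were the peak of each list closest to a TSS, every unshared peak within 2 kb of or inside a member, and the distal shared peaks with the lowest name numbers. Others, including all distal unshared ones, and the printed intron 2 pair were chosen after their values were seen. The other pathway genes were named when a list held no peak at their TSS or when they differed most, and Acvr1c, Gdf1, Tgif1, Smad2, Smad3 and Foxh1 were named after their values were seen. 1 gene planned for that list is not reported here. The members and lists were chosen with earlier results of these data known.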

Additional observations from a re-analysis of the deposited data

How the results depend on the processing

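Of 76 alternative values, 21 were counted as moved and 55 were not, though some of the 55 differed clearly from the reported values. Among these 55, the loci with 100 kb on either side held 88 WT and 76 KO peaks. Merging neighbouring peaks left 45 and 39. With only peaks whose closest TSS was that of a member, the ratio of KO to WT peaks was 0.735, against the reported 0.918. A minimum overlap of 50% of each peak raised the share without a partner to 55.7% in WT and 51.8% in KO. With 10 kb on either side the loci held 39 WT and 30 KO peaks, and counting only peaks whose closest TSS was that of a member left 34 and 25. The lower 50% of name numbers left 22 WT and 19 KO peaks, of which 22.7% and 10.5% had no partner in the other list. Any motif in the whole peak was found in 7 WT and 4 KO peaks. Within 1 kb of a TSS, Lefty1 held 2 WT peaks and Tdgf1 held 5 WT and 2 KO peaks. Without the Lefty1 and Lefty2 windows, a setting chosen after seeing the data, both lists held 41 peaks, a ratio of 1, and 31.7% of WT and 34.1% of KO peaks had no partner, which turns the order of these shares. No paired analysis was possible because WT and KO have 1 library each, and for the same reason no replicate could be left out. Depth behind single peaks is unknown, so a site missing from a list may be open below the unknown threshold.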
